A study of Mus musculus with 12 samples.

Results

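The genes described here are 10 enzymes of serine, one-carbon and amino acid metabolism: Phgdh, Psat1, Psph, Shmt2, Mthfd2, Aldh1l2, Asns, Bcat1, Cth and Aldh18a1. They were taken by gene symbol from a count table of 56748 genes, and all 10 passed the filter on low counts that left 16465 genes. They were chosen by name, with their measured differences between these same libraries already known, so the values of the 10 genes are given as a description, with fold changes and standard errors but without p-values.

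Serine is made from a glycolytic intermediate in 3 enzymatic steps. Mitochondrial serine hydroxymethyltransferase then splits it into glycine and a folate-bound one-carbon unit, which is oxidised and released as formate for purine, thymidylate and methyl-group synthesis. Glycine and proline, the products of neighbouring branches, are the most abundant residues of collagen, and many of these enzymes are known as targets of the transcription factor Atf4, which is induced when amino acids are scarce or protein synthesis is stressed.

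C3H10T1/2 (10T1/2) cells, an established mouse line of mesenchymal progenitors, wild type in the labels, were kept in suspension for 1 h (in 0.5% FBS by the labels and without serum by the methods) and then plated in 0.5% FBS for 18 h on gels of 12 kPa stiffness that carried a coat of type I collagen (0.05 mg/ml). The collagen was polymerised alone (col1, 4 libraries), with 30 nM recombinant aortic carboxypeptidase-like protein, a secreted collagen-binding protein (col1-ACLP, 4 libraries), or with the same protein in cells that also received SB431542, an inhibitor of the TGFβ type I receptor ALK5, at 5 µM by the methods of the study (col1-ACLP+SB, 4 libraries). No group received the inhibitor on col1 without ACLP, so an effect of the inhibitor alone and one on the response to ACLP cannot be told apart. All groups are 1 cell line, and the values are for bulk RNA, in which fewer cells of a kind and less RNA per cell cannot be told apart.

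Poly(A) RNA was sequenced to between 29246154 and 52201922 counts per library. The 9 mesenchymal markers were all detected, and their summed level of 20480 to 21157 CPM (counts scaled to the library total and by TMM) for col1, 30518 to 38478 CPM for col1-ACLP and 27464 to 32564 CPM for col1-ACLP+SB was mostly Col1a1 and Col1a2. Pdgfra went the other way, from 398 to 454 CPM for col1 and from 230.3 to 266 CPM for col1-ACLP, and Twist1, Prrx1 and Pdgfrb were also lower on col1-ACLP without overlap. Markers of other cell types were low in every library, with summed levels of at most 4.84 CPM for 4 epithelial genes, 0.399 CPM for 3 endothelial, 0.269 CPM for 3 adipocyte and 0.0709 CPM for 3 skeletal muscle genes. Of 4 immune markers, Cd68 alone was above 0.182 CPM, at 8.95 to 10.0 CPM for col1, 5.32 to 8.72 CPM for col1-ACLP and 7.11 to 9.80 CPM for col1-ACLP+SB. Epcam, Adgre1, Cd3e, Myod1 and Myog had no count. The part of these markers in the results was not tested. The library col1 replicate 2 stood apart on the first principal component (-86.7, against -11.1 to -8.97 for the other col1 libraries). Without it the SD over the col1 libraries fell from 5.92 to 0.975 CPM for Shmt2, from 2.08 to 0.623 CPM for Aldh18a1, from 9.84 to 5.82 CPM for Phgdh and from 2.27 to 1.33 CPM for Psph, while it rose from 0.439 to 0.520 CPM for Cth and from 0.855 to 0.920 CPM for Mthfd2 and moved by less than 1.5 times for the other 4 genes.

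RefSeq promoter windows of 300 bases, running from 250 bases before to 50 bases after an annotated start in GRCm39, were found for 8 of the 10 genes, in 10 windows. They were searched on both strands for TGATGNAA, a core of the composite C/EBP-ATF element that Atf4 binds, for the cyclic AMP response element TGACGTCA and for the E-box CACGTG. No match in these windows overlapped another. TGATGNAA was present in 1 of the 10 windows, that of Asns, and in 3.97% of all 32851 windows. CACGTG was present in 1 of the 10, that of Aldh18a1, and in 7.15% of all windows, and TGACGTCA in 0 of the 10 and in 1.79% of all windows. The 120 bases before the start are shown for the 2 genes with a match, 5′ to 3′ on the minus strand, with the match in capitals. The Asns stretch is chr6:7693210-7693329, with the match 23 to 16 bases before the RefSeq start, which lies inside the gene as deposited (chr6:7675169-7693254), so the match does too. The Aldh18a1 stretch is chr19:40576908-40577027, with the match 59 to 54 bases before the start.
Asns: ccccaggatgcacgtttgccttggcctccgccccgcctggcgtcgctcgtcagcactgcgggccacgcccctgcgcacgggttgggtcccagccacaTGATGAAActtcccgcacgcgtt
Aldh18a1: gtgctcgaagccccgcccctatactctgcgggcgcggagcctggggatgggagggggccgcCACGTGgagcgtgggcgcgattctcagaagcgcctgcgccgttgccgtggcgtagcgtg
A match is a description of the letters in these windows, and no use of either element was measured.

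The first comparison asked how the enzymes differed between cells on collagen with ACLP and cells on collagen alone. All 10 were higher on col1-ACLP, and for each of them the lowest col1-ACLP library lay above the highest col1 library. The log2 fold changes ran from 0.63 for Psat1 to 2.46 for Cth, with a median of 1.07, while the median of all 16465 genes tested was -0.0099. All 10 passed an adjusted p of 0.05 and a log2 fold change of 0.58 in the higher direction, as did 2.61% of all genes tested, and 10.9% of all genes had col1-ACLP libraries wholly above the col1 libraries. The genes were chosen with this contrast known, so nothing is read from these counts. Together the 10 genes took 0.0650% to 0.0689% of all counts for col1, 0.117% to 0.131% for col1-ACLP and 0.0978% to 0.105% for col1-ACLP+SB.

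The serine pathway itself comes first. Phgdh, which oxidises 3-phosphoglycerate in the committed step of serine synthesis, lies at chr3:98220486-98247306. Its level was 134, 155, 134 and 144 CPM in the col1 libraries, 242, 229, 227 and 252 CPM in those with ACLP and 218, 222, 208 and 201 CPM in those with ACLP and SB. The 3 groups did not overlap, and Phgdh was 1.68-fold higher on col1-ACLP than on col1 (log2 fold change 0.75, SE 0.055). Psat1, the aminotransferase of the next step (chr19:15882042-15924701), had 165, 165, 146 and 145 CPM in the col1 libraries, 227, 246, 239 and 246 CPM in those with ACLP and 197, 202, 182 and 194 CPM in those with ACLP and SB. Its groups were again apart, with the smallest difference of the 10 genes between col1-ACLP and col1, at 1.55-fold (log2 fold change 0.63, SE 0.054).

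Psph, the phosphatase that releases serine (chr5:129842622-129864513), was expressed at a lower level per length than Phgdh and Psat1. It had 16.3, 11.5, 16.2 and 14.0 CPM in the col1 libraries, 28.1, 27.5, 27.5 and 33.7 CPM in those with ACLP and 26.1, 25.2, 20.8 and 23.8 CPM in those with ACLP and SB. All col1-ACLP libraries lay above all others, and the gene was 2.01-fold higher than on col1 (log2 fold change 1.01, SE 0.111). Psph shares 452 bases with Cct6a, a chaperonin subunit on the opposite strand that has 6.86 times as many counts. Whether counting used strand is not given in the sources used here, so reads in the shared stretch cannot be assigned; the log2 fold change of Cct6a was 0.28 (SE 0.049).

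The mitochondrial one-carbon enzymes form the second group. Shmt2, which splits serine to glycine and methylene-tetrahydrofolate (chr10:127352992-127358313), had 75.2, 87.3, 74.8 and 76.7 CPM in the col1 libraries, 138, 136, 142 and 167 CPM in those with ACLP and 130.2, 118, 108 and 109 CPM in those with ACLP and SB. The groups did not overlap, and the highest col1 value belonged to replicate 2, the library that stood apart. Shmt2 was 1.86-fold higher on col1-ACLP (log2 fold change 0.89, SE 0.071).

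Mthfd2, the mitochondrial dehydrogenase and cyclohydrolase that acts on methylene-tetrahydrofolate (chr6:83282673-83302890), varied little on col1, with 24.3, 24.1, 22.5 and 23.1 CPM. It had 63.9, 60.4, 53.4 and 74.9 CPM in the libraries with ACLP and 49.8, 43.3, 46.2 and 44.3 CPM in those with ACLP and SB. Every col1-ACLP library was above every other, and the difference from col1 was 2.69-fold (log2 fold change 1.43, SE 0.085).

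Aldh1l2, which oxidises 10-formyl-tetrahydrofolate in mitochondria and yields NADPH (chr10:83323314-83370004), had 80.5, 74.1, 87.7 and 80.5 CPM in the col1 libraries, 167, 169, 174 and 198 CPM in those with ACLP and 148, 138, 143 and 137 CPM in those with ACLP and SB. The groups did not overlap, and Aldh1l2 was 2.20-fold higher on col1-ACLP (log2 fold change 1.13, SE 0.060). It shares 1056 bases with Nopchap1 on the opposite strand, which has 62.7% as many counts and a log2 fold change of 0.12 (SE 0.057).

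The remaining enzymes serve other amino acids. Asns, which makes asparagine from aspartate and glutamine and whose promoter stretch is shown above, had 65.0, 58.6, 61.6 and 66.3 CPM in the col1 libraries, 153, 155, 149.9 and 175 CPM in those with ACLP and 122, 119, 127 and 118 CPM in those with ACLP and SB. The groups were well apart, and Asns was 2.52-fold higher on col1-ACLP (log2 fold change 1.33, SE 0.058). Aldh18a1, the first enzyme from glutamate towards proline and ornithine (chr19:40538701-40576907), had 79.5, 82.8, 78.4 and 78.4 CPM in the col1 libraries, 124, 124, 122 and 141 CPM in those with ACLP and 114, 127, 115 and 113 CPM in those with ACLP and SB. Both groups with ACLP lay above col1 (1.60-fold on col1-ACLP, log2 fold change 0.68, SE 0.057) and overlapped each other.

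Bcat1, the cytosolic aminotransferase of leucine, isoleucine and valine (chr6:144939561-145021910), had 17.1, 19.2, 17.2 and 14.5 CPM in the col1 libraries, 45.2, 43.5, 45.0 and 54.8 CPM in those with ACLP and 34.9, 37.1, 30.7 and 29.3 CPM in those with ACLP and SB. The 3 groups were separate, and Bcat1 was 2.77-fold higher on col1-ACLP (log2 fold change 1.47, SE 0.098). Cth, the cystathionine γ-lyase that releases cysteine in transsulfuration (chr3:157599885-157630714), was the least expressed per length, with 1.70, 1.09, 1.52 and 0.721 CPM in the col1 libraries, 7.30, 4.73, 5.85 and 9.71 CPM in those with ACLP and 4.44, 4.46, 5.23 and 3.21 CPM in those with ACLP and SB. These levels rest on 31 to 65 counts per col1 library. Cth differed most from col1, at 5.50-fold on col1-ACLP (log2 fold change 2.46), and had the widest error (SE 0.271); its col1-ACLP and col1-ACLP+SB libraries overlapped.

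**Figure D1:**
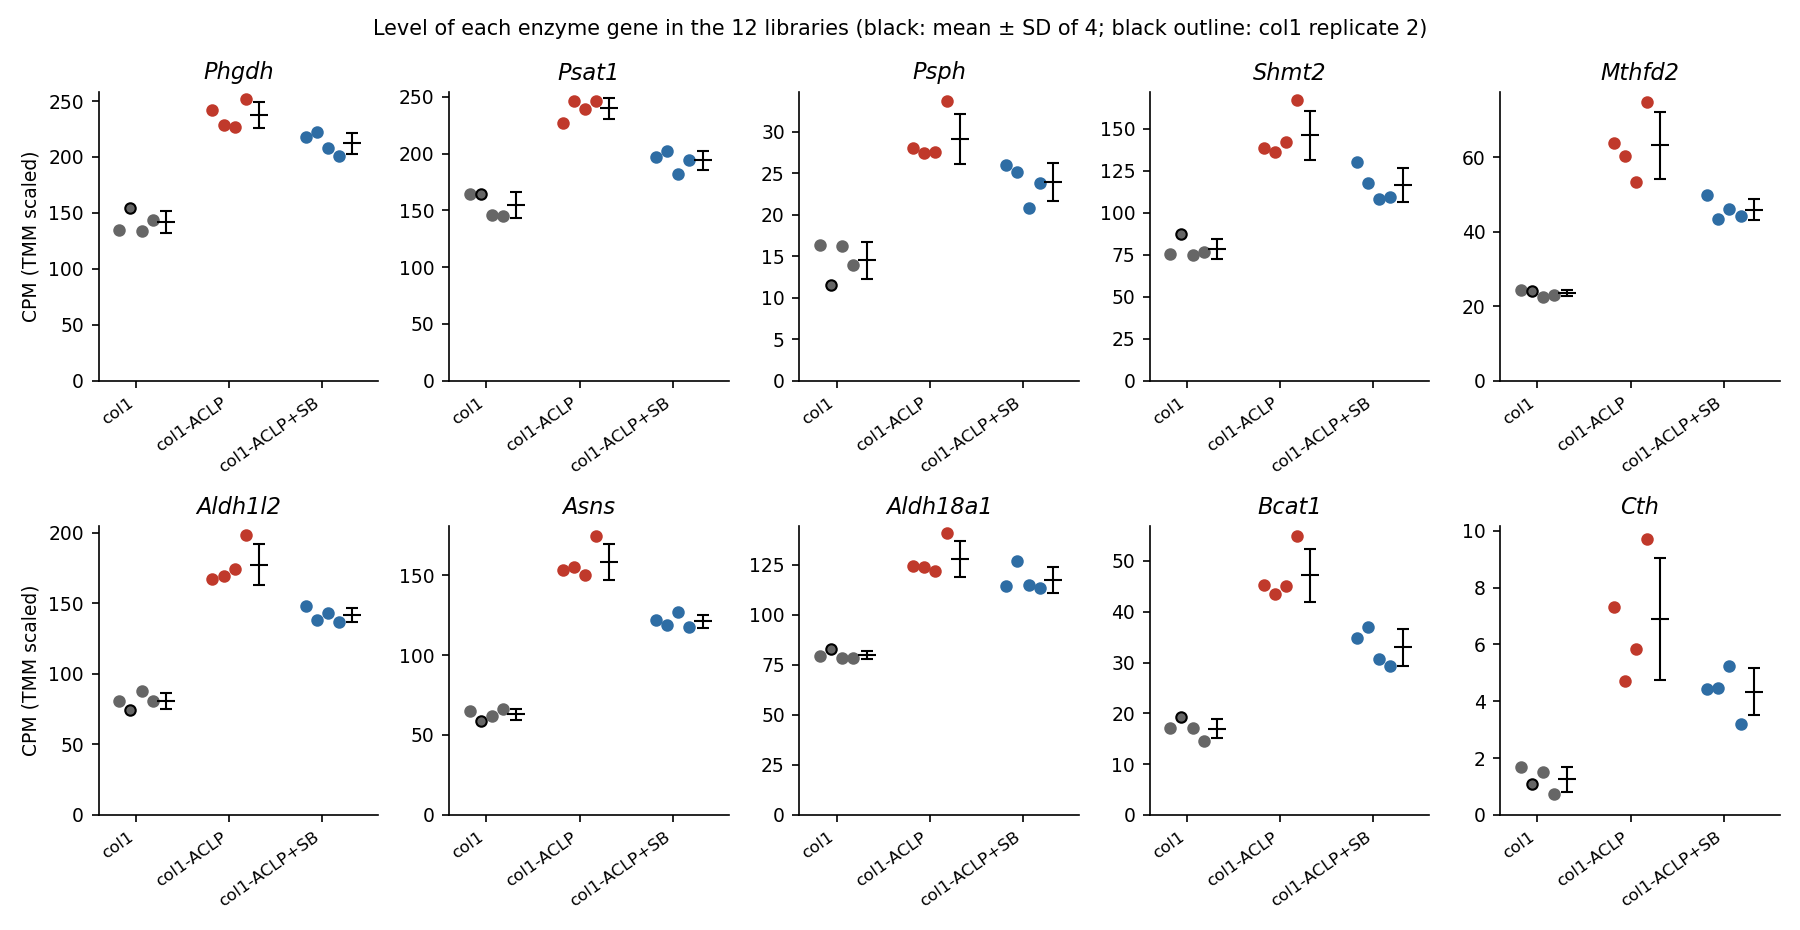
Level of each of the 10 enzyme genes in CPM (TMM scaled, linear axis from 0) in the 12 libraries, with 1 point per library and the mean ± SD of 4 libraries beside each group. Every col1-ACLP and col1-ACLP+SB point lies above every col1 point of the same gene, and the col1-ACLP+SB points lie below the col1-ACLP points for 8 of the 10 genes, all but Cth and Aldh18a1.

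Within col1-ACLP, replicate 4 was above the group mean in all 10 genes, by 0.20 on the log2 scale on average, and it was the library with the lowest total count (29246154). Without it the median log2 fold change of the 10 genes against col1 was 1.01, the lowest value when any 1 library was left out. The share of mitochondrial counts was 2.00% to 2.21% for col1-ACLP, 2.39% to 2.98% for col1 and at most 2.88% for col1-ACLP+SB; its part in the result was not tested.

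The second comparison set cells on col1-ACLP with the ALK5 inhibitor against cells on col1. The 10 enzymes were still higher, and again no col1 library reached the lowest col1-ACLP+SB library, which held for 6.70% of all genes tested. The log2 fold changes were 1.80 for Cth (SE 0.269), 0.97 for Mthfd2 (SE 0.085), 0.96 for Bcat1 (SE 0.098), 0.95 for Asns (SE 0.058), 0.81 for Aldh1l2 (SE 0.060) and 0.72 for Psph (SE 0.111). They were 0.58 for Phgdh, 0.57 for Shmt2, 0.56 for Aldh18a1 and 0.32 for Psat1, with SE from 0.054 to 0.071. The median was 0.77. Of the 10 genes, 7 passed the threshold in the higher direction, against 1.27% of all genes, and the 3 that did not were Shmt2, Aldh18a1 and Psat1, which lay under the fold change of 0.58. Phgdh stood just above it and fell below it in 7 of 20 alternative settings, so the count of 7 changes with the setting. As in the first comparison, the genes were chosen with results of these libraries known, and nothing is read from these counts.

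The third comparison set the 2 ACLP groups against each other. All 10 enzymes had a lower mean with the inhibitor, by a ratio from 0.92 for Aldh18a1 to 0.63 for Cth. Without col1-ACLP replicate 4 the Aldh18a1 log2 difference moved from -0.12 to -0.073. The log2 differences were -0.66 for Cth (SE 0.249), -0.51 for Bcat1 (SE 0.095), -0.46 for Mthfd2 (SE 0.082) and -0.38 for Asns (SE 0.057), and between -0.33 and -0.12 for the other genes, with a median of -0.33. None passed the threshold of fold change and adjusted p, which 0.0425% of all genes passed in the lower direction and 0.0850% in the higher. Under adjusted p alone 6 of the 10 were lower, against 0.905% of all genes, and for 8 of the 10 every col1-ACLP+SB library lay below every col1-ACLP library, against 4.52%. This comparison shares its col1-ACLP libraries with the first and its col1-ACLP+SB libraries with the second. The 3 sets of values are therefore not independent of each other. The genes were chosen with results of these libraries known, so nothing is read from these counts either.

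**Figure D2:**
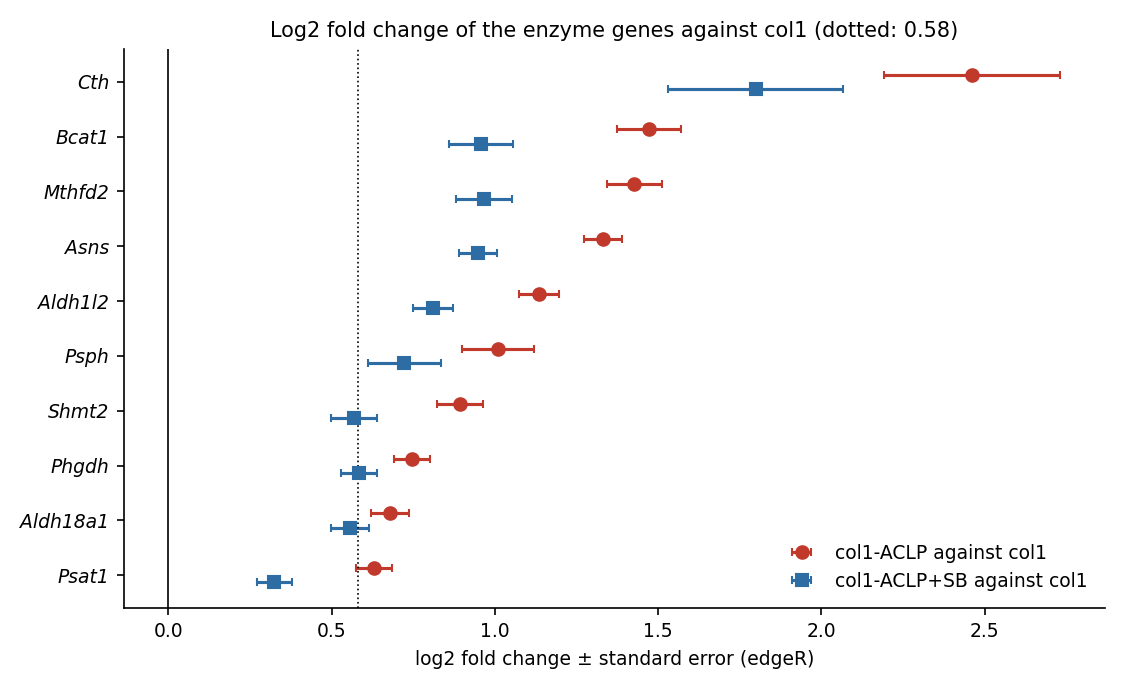
Log2 fold change against col1 (x axis) with its standard error for the 10 enzyme genes (y axis), as circles for col1-ACLP and squares for col1-ACLP+SB; the dotted line marks 0.58. Every circle lies to the right of the square of the same gene, from 0.63 and 0.32 for Psat1 to 2.46 and 1.80 for Cth.

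Levels between genes were compared per length, as FPKM from the gene lengths of the deposited table. On col1 the order was Phgdh (57.0 ± 3.96 FPKM, SD, n = 4), Psat1 (36.4 ± 2.66), Shmt2 (25.3 ± 1.90), Asns (23.0 ± 1.27), Aldh18a1 (19.6 ± 0.512), Aldh1l2 (10.8 ± 0.739), Mthfd2 (6.73 ± 0.245), Psph (3.35 ± 0.525), Bcat1 (1.82 ± 0.206) and Cth (0.450 ± 0.157). Of the neighbours in this order, Shmt2 and Asns overlapped between libraries and the others did not. On col1-ACLP, Asns (57.9 ± 4.09 FPKM) stood second, beside Psat1 (56.4 ± 2.17) and Shmt2 (46.9 ± 4.61), and each neighbouring pair of these 3 overlapped. With the inhibitor, Psat1 (45.6 ± 1.98 FPKM) and Asns (44.3 ± 1.49) overlapped, and Phgdh was first and Cth last in all 3 groups.

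Several of the enzymes have a sister that catalyses a like reaction in another compartment or tissue, and the sisters were followed whatever their values. Shmt1, the cytosolic counterpart of Shmt2, had a log2 fold change of -0.17 on col1-ACLP against col1 (SE 0.128, edgeR adjusted p = 0.419). Mthfd2l, the other mitochondrial enzyme of the Mthfd2 step, had -0.35 (SE 0.093, edgeR adjusted p = 0.00785), short of the fold threshold. Aldh1l1, the cytosolic counterpart of Aldh1l2, was near the limit of detection (0.838 ± 0.652 CPM on col1, SD, n = 4) and gave -0.78 (SE 0.616, edgeR adjusted p = 0.458). Shmt1 shares 184 bases with Smcr8 on the opposite strand, which has 5.39 times as many counts, and Aldh1l1 shares 33054 bases with Gm45901 on the same strand, which has 55.6% as many, so the values of both sisters are uncertain.

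Bcat2, the mitochondrial branched-chain aminotransferase, was the more abundant of its pair on col1, and its log2 fold change was -0.22 (SE 0.076, edgeR adjusted p = 0.0481), short of the fold threshold. Asnsd1, a protein with an asparagine synthetase domain, gave -0.022 (SE 0.190, edgeR adjusted p = 0.962). Pycr1, which acts after Aldh18a1 in proline synthesis, was higher at 94.8 ± 12.2 CPM on col1-ACLP against 41.4 ± 2.44 CPM on col1 (SD, n = 4; log2 fold change 1.19, edgeR adjusted p = 2.3e-11). Cbs, which acts just before Cth, was at 0.322 ± 0.266 CPM on col1 (SD, n = 4), too low for its log2 fold change of 0.075 (SE 0.862) to be informative.

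The makeup of some of the pairs differed between the groups accordingly. Bcat1 was 14.8% ± 2.43 of the summed FPKM of Bcat1 and Bcat2 for col1, 35.8% ± 2.54 for col1-ACLP and 25.9% ± 2.87 for col1-ACLP+SB (SD, n = 4). Mthfd2 was 65.1% ± 1.54, 86.3% ± 2.25 and 81.1% ± 1.54 of its pair with Mthfd2l. Shmt2 was 89.2% ± 1.75, 94.5% ± 0.394 and 93.2% ± 1.02 of its pair with Shmt1. Asns was 93.8% ± 1.23, 97.4% ± 0.331 and 96.6% ± 0.727 of its pair with Asnsd1. The share of Aldh1l2 with Aldh1l1 overlapped between col1 (96.9% to 99.5%) and col1-ACLP (99.4% to 99.6%). So did that of Cth with Cbs (82.2% to 100% for col1, 95.8% to 98.9% for col1-ACLP). These shares use the values that chose the listed enzymes and are given without a test.

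**Figure D3:**
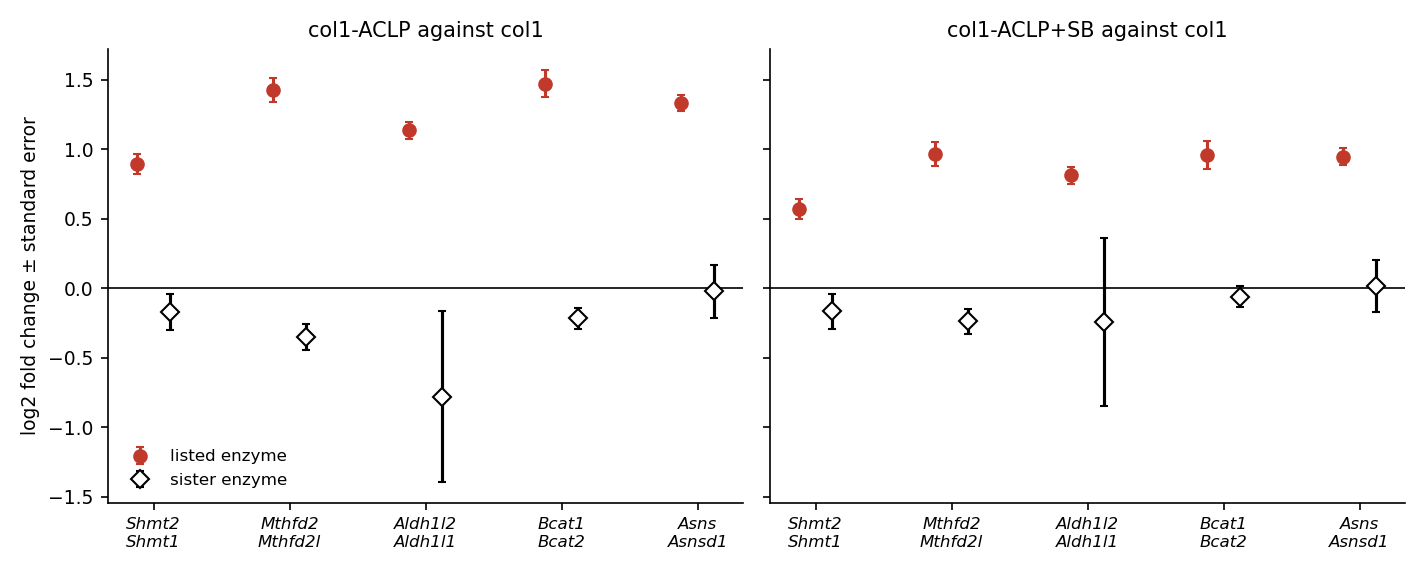
Log2 fold change with its standard error (y axis) for 5 listed enzymes (filled circles) and their sisters (open diamonds), against col1, on col1-ACLP (left) and col1-ACLP+SB (right). The listed enzymes lie between 0.57 and 1.47 and the sisters between -0.78 and 0.017, with a wide error for the barely expressed Aldh1l1.

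The wider pathways were described from 7 lists of 87 further genes of serine and glycine, folate, purine, methionine and transsulfuration, asparagine, glutamate and alanine, proline and ornithine, and branched-chain metabolism, of which 78 were tested. On col1-ACLP against col1, 5 of the 78 were higher and 2 were lower, against 2.61% and 2.36% of all genes, and the median log2 fold change of the 78 was 0.017. Mthfd1l, the mitochondrial synthetase that releases formate, was higher (log2 fold change 0.75, edgeR adjusted p = 2.0e-06), as were Pycr1 and Got1, the cytosolic aspartate aminotransferase (0.73, edgeR adjusted p = 1.1e-06). Odc1, which makes putrescine from ornithine, rose by 0.66 on the log2 scale (edgeR adjusted p = 3.1e-08).

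The 2 lower genes were Ppm1k and Amt. Ppm1k, the phosphatase that activates branched-chain ketoacid dehydrogenase, fell by 0.77 on the log2 scale (edgeR adjusted p = 0.000206). Amt, the aminomethyltransferase of the glycine cleavage system, fell by 0.58 (edgeR adjusted p = 0.0147), at the edge of the threshold; it lost the call with no filter on low counts and in 6 of the 12 fits with 1 library left out. Mthfd1, the cytosolic trifunctional folate enzyme, had 0.57 (SE 0.083, edgeR adjusted p = 1.1e-05), just under the fold threshold, which it passed in 4 of 12 fits with 1 library left out. None of the 6 purine synthesis genes tested and none of the 16 genes of the methionine cycle and transsulfuration passed it; under adjusted p alone, 1 of the 6 purine genes was higher, and 2 of the 16 were higher and 4 lower, against 9.52% and 8.41% of all genes.

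With the inhibitor, 2 of the 78 pathway genes were higher than on col1 and 0 were lower, against 1.27% and 1.01% of all genes. They were Pycr1 (log2 fold change 0.91, edgeR adjusted p = 6.7e-09) and Got1 (0.62, edgeR adjusted p = 2.5e-05), which lost its call without col1 replicate 2 (0.55) or col1-ACLP+SB replicate 2 (0.57), leaving 1 of the 78. Between the 2 ACLP groups 0 of the 78 were called by edgeR, also under adjusted p alone (0.571% of all genes were higher and 0.905% lower by that rule), and 9 had an unadjusted p under 0.05, a rule that 12.8% of all genes met. DESeq2 and limma-voom also called 0 of them past both thresholds.

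Genes that accompany these enzymes in the amino acid response were described from 3 further lists. Of 19 regulators of that response, 5 were higher and 0 lower on col1-ACLP against col1, beside 2.61% and 2.36% of all genes, with a list median of 0.15. Under adjusted p alone 8 were higher and 1 was lower, against 9.52% and 8.41% of all genes. Ddit3 (log2 fold change 0.078, edgeR adjusted p = 0.626) and Atf3 (0.082, edgeR adjusted p = 0.900) were not called, and their libraries overlapped between these groups. Trib3, a pseudokinase induced in the response, rose from 29.8 ± 4.24 to 112 ± 16.6 CPM (SD, n = 4; log2 fold change 1.91, edgeR adjusted p = 3.0e-13), and Chac1, which degrades glutathione, rose from 18.5 ± 3.73 to 52.5 ± 7.81 CPM (SD, n = 4; edgeR adjusted p = 1.4e-09). Atf5, Eif4ebp1 and Nupr1 rose by 0.68, 0.63 and 0.58. Nupr1 lost its call with library size alone (0.53) and in 4 of the 12 fits with 1 library left out, and Eif4ebp1 without col1-ACLP replicate 4 (0.58). Atf4 itself had 272 ± 15.8 CPM for col1, 386 ± 18.4 CPM for col1-ACLP and 342 ± 13.2 CPM for col1-ACLP+SB (SD, n = 4), with log2 fold changes against col1 of 0.50 (edgeR adjusted p = 2.2e-08) and 0.33 (edgeR adjusted p = 3.1e-05), both under the fold threshold.

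Of 16 amino acid transporters tested, 4 were higher and 1 was lower, beside the same 2.61% and 2.36% of all genes, with a median of 0.16. The higher were Slc1a4, which carries serine and other small neutral amino acids (log2 fold change 1.29), and Slc7a5, the large neutral transporter (1.10). The others were Slc7a1, the cationic transporter (0.90), and Slc7a11, the cystine carrier (0.64). Slc43a2 fell by 0.65 and lost its call without col1 replicate 2 (-0.58). Of 20 cytosolic tRNA synthetases, which charge tRNAs with amino acids, 9 were higher and 0 lower, beside the same shares, with a median of 0.44 and all 20 estimates above 0. Aars led with 0.87, followed by Iars (0.83) and Gars (0.78), and the lowest of the 9 was Cars (0.63, and 0.58, short of the threshold, with library size alone). With the inhibitor, 2 regulators (Trib3, 1.59, and Chac1, 1.30), 2 transporters (Slc1a4, 1.03, and Slc7a5, 0.79) and 1 synthetase (Aars, 0.67) were higher than on col1 and 0 were lower, beside 1.27% and 1.01% of all genes. Between the 2 ACLP groups 0 of these genes passed both thresholds. Under adjusted p alone 2 transporters, 6 synthetases and 0 regulators were lower with the inhibitor, against 0.905% of all genes. An unadjusted p under 0.05, in either direction, was found for 7 of the 19 regulators, 6 of the 16 transporters and 11 of the 20 synthetases, against 12.8% of all genes.

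**Figure D4:**
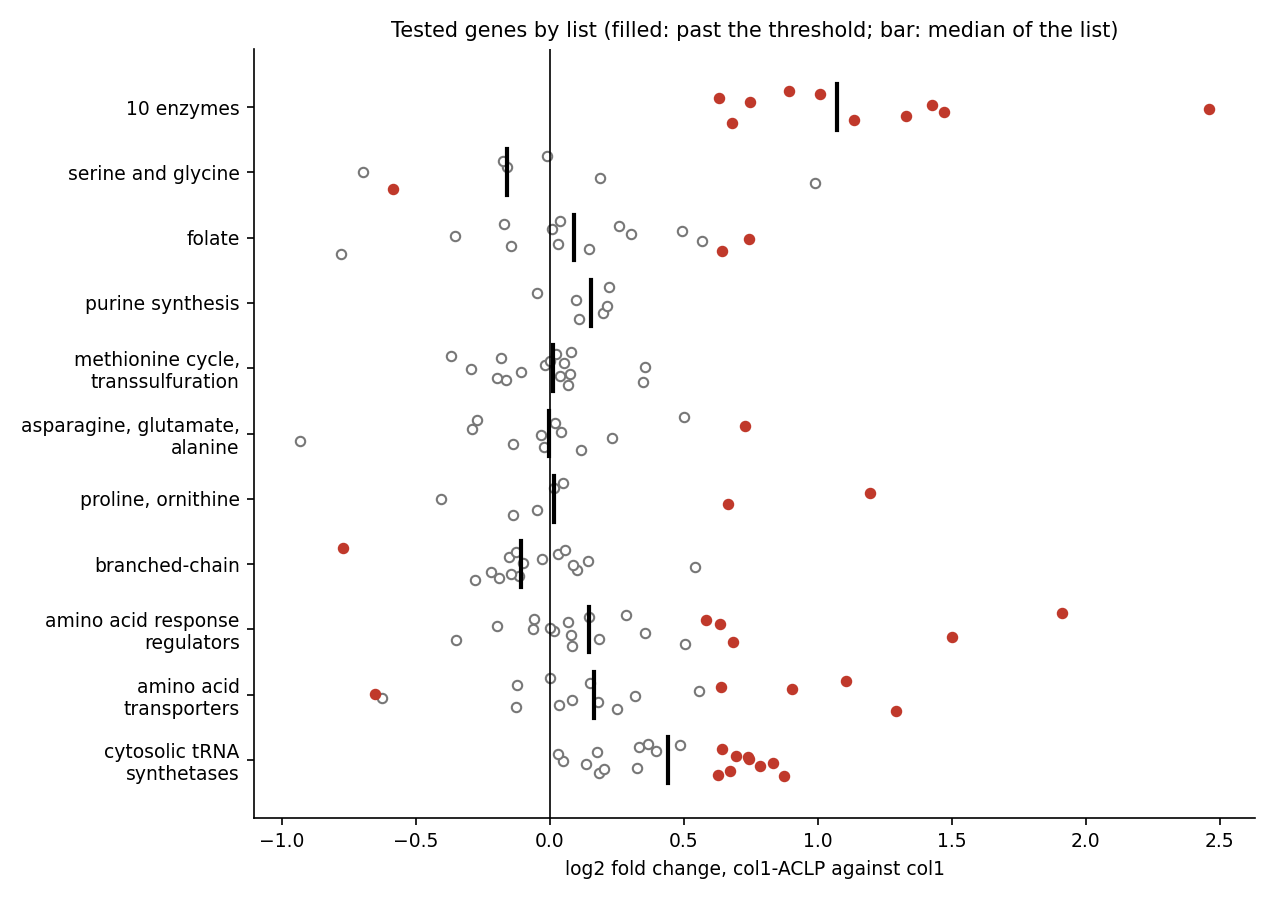
Log2 fold change on col1-ACLP against col1 (x axis) of each tested gene, by list (y axis), with filled points for genes past the threshold and a bar at the median of the list. The 10 enzymes lie between 0.63 and 2.46, the medians of the 7 pathway lists lie between -0.16 and 0.15, and the tRNA synthetases have a median of 0.44.

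The genes whose profile over the 12 libraries was most like the mean profile of the 10 enzymes were found by the root mean square difference of centred log2 CPM. Among the 8 nearest genes outside the list were Slc7a5 (0.066), Sorbs2 (0.075), Col11a1, a fibrillar collagen chain (0.079), Cyp26b1, which degrades retinoic acid (0.082), Acta2, smooth muscle actin (0.093), and Pycr1 (0.096). The log2 fold changes of these 6 on col1-ACLP against col1 lay between 1.02 for Cyp26b1 and 1.19 for Pycr1. The measure picks genes near the mean profile in size as well as shape, so fold changes near those of the enzymes follow from the choice. Without col1 replicate 2, Acta2 ranked 10 and Pycr1 ranked 11, and the other 4 named stayed among the nearest 8. Among all 16465 genes, Aldh1l2 ranked 3 and Asns 10 by the same measure, and Cth ranked 10179. Cth had the same order of group means, at 1.26 CPM for col1, 6.90 CPM for col1-ACLP and 4.34 CPM for col1-ACLP+SB. Its fold change was the largest and its error the widest, and the measure counts both as distance. Each of the 10 is part of the mean profile it is set against, so its rank is partly fixed by construction.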

How the data were processed

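Wild type 10T1/2 cells were profiled by bulk RNA sequencing in 3 groups of 4 libraries: on collagen, on collagen with ACLP, and on collagen with ACLP plus SB431542. Per the labels and methods, the deposited values are unnormalized read counts for each gene, made after mapping with HISAT2 2.1.0. The genome is GRCm39 in the methods and mm10 in the processing notes of the labels; the deposited coordinates matched GRCm39, with 93.9% of 56017 matched genes starting within 2000 bases of their GENCODE start. The counting tool, its use of strand and its treatment of multiply mapped reads are not given in the sources used here. Columns of group and replicate followed the labels, and no column was left out.

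The test was that of edgeR 4.0.16 in R 4.3.3 (filterByExpr, TMM, glmQLFit and glmQLFTest, group as the only term, all 12 libraries in 1 fit) with Benjamini-Hochberg adjustment over 16465 genes. A gene was called at an adjusted p under 0.05 and a log2 fold change beyond 0.58, the threshold of the study, which used DESeq2 on these counts. CPM and FPKM were computed from the deposited counts and gene lengths with TMM scaling, and a prior count of 2 was added for profiles on the log2 scale. The biological coefficient of variation was 0.153. Replicates of 1 group differed beyond counting error (chi-square over its degrees of freedom, 7.22 to 19.5), and depth limits the low genes such as Cth most. Alternatives used other size factors, filters, tools (DESeq2 1.42.0, limma-voom with limma 3.58.1), call rules and left-out libraries. The procedure was tested on simulated data.

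The members and the lists were chosen with earlier results of these data known. Named were the 10 enzymes, list genes called in any contrast (up to 30, by size of change), 10 sister or partner enzymes and Atf4. The 8 genes with the nearest profile were named too, and Ddit3 and Atf3 were added as uncalled regulators. Ddit3 and Atf3 were not examined for outlying libraries. Some genes under this rule are counted but not reported by name here. The labels do not say that replicates are separate cultures, although the study calls them biological; p-values measure the spread between these libraries. Replicate numbers do not pair libraries across groups: deviations of libraries with the same number correlated between -0.037 and 0.036.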

Additional observations from a re-analysis of the deposited data

Results flagged for a closer look

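Of 141 groups of 4 libraries examined over the named genes, 10 held a library whose gap to the others was larger than Dixon's 95% criterion allows, and chance gives about 1 in 20. Among the listed enzymes the criterion was met in 5 of 30 groups. In col1-ACLP, replicate 4 had 33.7 CPM of Psph (others 27.5 to 28.1), 54.8 CPM of Bcat1 (others 43.5 to 45.2) and 141 CPM of Aldh18a1 (others 122 to 124). The same library had 76.4 CPM of Slc1a4 (others 57.7 to 59.0), 343 CPM of Eprs (others 296 to 304) and 229.8 CPM of Gars (others 205 to 207).

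In col1, replicate 2 had 87.3 CPM of Shmt2 (others 74.8 to 76.7) and 296 CPM of Atf4 (others 263 to 266). In col1-ACLP+SB, replicate 2 had 127 CPM of Aldh18a1 (others 113 to 115) and replicate 3 had 105 CPM of Odc1 (others 93.6 to 94.4).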

How the results depend on the processing

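The 10 enzymes kept their direction in all 3 contrasts under 20 alternatives of normalization, filter, tool, block and left-out library, and no value moved by more than the spread between replicates. With 1 library left out, their median ran from 1.01 to 1.12, from 0.70 to 0.82 and from -0.37 to -0.28. The count past a log2 fold change of 0.58 depended on the setting: it was 9 on col1-ACLP with library size alone (Psat1, 0.58), and from 6 to 8 on col1-ACLP+SB against col1, with Phgdh under it with library size alone, with only the 2 groups compared and without col1 replicate 1 or 3, col1-ACLP replicate 2 or col1-ACLP+SB replicate 1 or 2, and Shmt2 past it without col1 replicate 2 or col1-ACLP+SB replicate 3 or 4.

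Under adjusted p alone, 14 pathway genes were higher and 9 lower on col1-ACLP, 9 and 5 with SB, and of all genes 1568 and 1385, 757 and 747, and, between the ACLP groups, 94 and 149. Tested against a fold change of 0.58 (glmTreat), 1 and 0 pathway genes were called on col1-ACLP and 1 higher with SB, and of all genes 144 and 86, 54 and 27, and 0 and 0. With no filter, 1 pathway gene was lower on col1-ACLP, and 26 genes were higher and 20 lower between the ACLP groups. That last contrast gave 24 and 15 with DESeq2, 8 higher with limma-voom and 11 lower with only its own groups fitted; the cause was not tested.

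With 1 library left out, 4 to 7 pathway genes were higher and 1 to 3 lower on col1-ACLP, and 1 to 2 higher and 0 to 0 lower with SB. Of all genes, 381 to 443 and 342 to 402 were called on col1-ACLP, 185 to 224 and 147 to 173 on col1-ACLP+SB, and 4 to 17 and 4 to 12 between the ACLP groups. Amt lost its call without col1 replicates 1, 3 and 4 or col1-ACLP replicates 1 to 3 (log2 fold change -0.58 to -0.51) and with no filter (-0.58). Got1 on col1-ACLP+SB lost it without col1 replicate 2 (0.55) or col1-ACLP+SB replicate 2 (0.57), Nupr1 without col1 replicate 1 or 3 or col1-ACLP replicate 3 or 4 (0.56 to 0.58), Slc43a2 without col1 replicate 2 (-0.58) and Eif4ebp1 without col1-ACLP replicate 4 (0.58). With library size alone Nupr1 (0.53) and Cars (0.58) lost it. Calls were gained by Mthfd1 on col1-ACLP without col1 replicate 1 or 2 or col1-ACLP replicate 1 or 3 (0.59 to 0.62), by Atf5 with SB without col1 replicate 1 or 2 or col1-ACLP+SB replicate 1, 3 or 4 (0.58 to 0.61) and by Slc43a2 with SB with library size alone (-0.59) or without col1 replicate 1 or 4 or col1-ACLP+SB replicate 2 (-0.61 to -0.59).

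A fit with the replicate number as a block was also run, although no pairing by number was seen. It gave 4 pathway genes higher and 2 lower on col1-ACLP, and 424 and 361 of all genes. On col1-ACLP+SB it gave 2 and 0 pathway genes and 202 and 155 of all genes. Between the ACLP groups it gave 11 and 6 of all genes. The medians of the 10 enzymes were 1.07, 0.77 and -0.32.

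Estimates near 0 changed sign. On col1-ACLP, Cbs was -0.080 with the replicate block; with col1-ACLP+SB, Asnsd1 was -0.0058 with library size alone and Aldh1l1 was 0.0040 with limma-voom. With 1 library left out, these ran from -0.33 to 0.61 for Cbs and from -0.13 to 0.11 for Asnsd1 on col1-ACLP, and from -0.12 to 0.15 for Asnsd1 and from -0.67 to 0.23 for Aldh1l1 with SB. Low counts limit the precision for Cth (1.26 CPM on col1), Aldh1l1 and Cbs, among other genes of the lists.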
